A study of Mus musculus with 12 samples.

Results

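The ribosomal protein genes are the subject here: the protein-coding genes whose mouse symbol is Rpl or Rps with a number and an optional short suffix. In the RefSeq gene table of GRCm38.p6 (mm10), 77 of 21887 protein-coding genes met this rule, 47 of the large 60S subunit (Rpl) and 30 of the small 40S subunit (Rps). Chromatin accessibility at them was followed through the reprogramming of fibroblasts to pluripotency by ATAC-seq, in which the transposase Tn5 cuts and tags accessible DNA. There were 4 groups of 3 libraries, all from mice of mixed C57BL/6 x 129 strain: mouse embryonic fibroblasts (MEF), which were not sorted, Stage 1 (day 6), Stage 2 (day 6+4) and established induced pluripotent stem cells (iPSC), each of the last 3 sorted for the reporter Oct4-GFP. Reprogramming was by a protocol named 3c enhanced, whose agents are not listed in the labels. Sorting and stage cannot be told apart in any comparison with MEF, and no label says that the 3 libraries of a group came from separate animals or cultures. The measure was the number of reads in the authors' counted regions within 1 kb of either end of a gene, summed per gene, so a value describes accessibility near the gene and not its transcript level.

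Ribosomal proteins coat and stabilise the ribosomal RNA of both subunits, and a ribosome needs them in matched amounts. Their genes are active in nearly every growing cell and are therefore often used as references. Most of their mRNAs begin with a C inside a run of pyrimidines, the terminal oligopyrimidine (TOP) motif, which ties their translation to the growth regulator mTOR, and their promoters are typically short, rich in GC and without a strong TATA box.

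The start sequences of 9 members named in the results are shown, and a relation of sequence to accessibility was not tested. Rps19, Rps21 and Rpl7a had the largest falls from MEF to iPSC. Rps23 and Rpl35 had start regions that were not called although the gene's sum rose. Rpl34 was the 1 member called higher at the listed start from MEF to iPSC with reads in regions scaled by TMM. Rpl36a and Rpl35a had the smallest range over the groups with that scaling, and Rpl13a is a common reference gene. Each stretch runs from 90 bases before to the tenth base from the listed start, from RefSeq (GRCm38.p6). Capitals mark the longest run of pyrimidines touching the 5 bases on either side of the start, as far as it lies in the stretch. Such a run need not include the first base, so it is not by itself a TOP motif. In Rps19 it begins at base -8 and ends before the start, and it begins at base 4 in Rps23 and base 3 in Rpl13a.
Rps19: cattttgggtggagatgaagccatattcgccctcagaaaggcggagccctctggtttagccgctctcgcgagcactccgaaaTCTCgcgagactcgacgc
Rps21: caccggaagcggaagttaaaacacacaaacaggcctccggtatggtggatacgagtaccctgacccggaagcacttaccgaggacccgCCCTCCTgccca
Rpl7a: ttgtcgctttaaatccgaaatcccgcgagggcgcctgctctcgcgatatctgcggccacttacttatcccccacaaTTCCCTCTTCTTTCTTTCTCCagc
Rps23: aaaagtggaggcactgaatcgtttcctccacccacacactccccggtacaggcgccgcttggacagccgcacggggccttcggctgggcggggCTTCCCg
Rpl35: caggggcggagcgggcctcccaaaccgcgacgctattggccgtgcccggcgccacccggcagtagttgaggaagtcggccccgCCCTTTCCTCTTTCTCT
Rpl34: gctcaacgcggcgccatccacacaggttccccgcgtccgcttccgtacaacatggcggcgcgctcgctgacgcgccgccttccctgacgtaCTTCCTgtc
Rpl36a: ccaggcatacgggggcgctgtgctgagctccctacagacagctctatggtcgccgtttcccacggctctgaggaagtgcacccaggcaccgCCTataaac
Rpl35a: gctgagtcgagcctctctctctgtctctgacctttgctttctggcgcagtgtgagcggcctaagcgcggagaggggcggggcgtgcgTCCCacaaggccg
Rpl13a: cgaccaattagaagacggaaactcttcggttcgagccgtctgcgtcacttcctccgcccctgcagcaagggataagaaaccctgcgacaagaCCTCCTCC
These stretches are chr7:24884502-24884601 (plus strand) for Rps19, chr2:180257289-180257388 (plus strand) for Rps21, chr2:26910717-26910816 (plus strand) for Rpl7a, chr13:90923032-90923131 (plus strand) for Rps23, chr2:39005122-39005221 (minus strand) for Rpl35, chr3:130730389-130730488 (minus strand) for Rpl34, chrX:134585564-134585663 (plus strand) for Rpl36a, chr16:33056363-33056462 (plus strand) for Rpl35a and chr7:45128736-45128835 (minus strand) for Rpl13a.

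The RefSeq table listed a start for 58 of the 77 members, as 300 bases per promoter, and the stretches above come from these. A run of at least 8 pyrimidines touching the 5 bases on either side of the start was present in 20 of the 58 (34.5%) against 9.26% of all 17492 listed promoters, a measure chosen after seeing the data. The printed starts differ in this: Rpl7a, Rpl35 and Rpl13a have long runs, while Rps19, Rpl35a and Rpl36a have 4, 4 and 3 pyrimidines. The letters CCGGAAG, the core recognised by ETS family factors, occurred on either strand in 22 members (37.9%, against 11.9% of all promoters). AAGATGGC, a YY1 core whose first letters can overlap the end of CCGGAAG, occurred in 5 (8.62% against 3.21%). The GC box GGGCGG was in 32 (55.2% against 46.3%), CCAAT in 18 (31.0% against 39.2%) and TATAAA in 6 (10.3% against 13.3%), each on either strand. Median GC content was 56.8% in the members and 56.3% in all promoters. A match of letters describes the sequence and is not a measured binding site.

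The libraries held between 14310290 and 32229388 reads, of which between 1034936 and 6261903 lay in the regions. The share in regions was 16.7% ± 5.37 for MEF (SD, n = 3), 7.64% ± 0.415 for Stage 1, 6.03% ± 0.813 for Stage 2 and 4.94% ± 0.395 for iPSC, and the MEF libraries themselves ran from 11.3% to 22.1%. A tested ribosomal protein gene had a median of 144 reads per MEF library and 29.0 per iPSC library, so precision was lower in iPSC. The labels were checked on marker genes. With reads in regions scaled by TMM, 29.7% of all genes tested were called higher and 28.1% lower from MEF to iPSC. Of 15 tested pluripotency markers 13 rose and 2 fell (median log2 fold change 3.96). Of 14 fibroblast markers 11 fell and 1 rose (median -0.73). Of the other cells a preparation could hold, 3 of 4 tested blood cell markers and 3 of 4 tested endothelial markers were also higher in iPSC than in MEF. The 5 of 8 blood markers with a region summed to between 27.3 and 29.7 CPM (reads of a gene scaled to a fixed total of reads in regions) in MEF and between 96.5 and 114 CPM in iPSC, and the defining Ptprc had no region. The 4 of 8 endothelial markers with a region summed to between 32.6 and 39.9 CPM and between 78.9 and 101 CPM, and Pecam1 and Cdh5 had none. The part of such cells in the results was not tested.

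Nearly every ribosomal protein gene had an accessible region in MEF, Stage 1 and Stage 2, and fewer had one called in iPSC. A counted region lay within 1 kb of an end of 73 of the 77 genes, 97 regions in all, and 57 of the 73 (78.1%) had a region called in all 4 of the authors' stage lists, against 63.6% of the other 14306 genes with a region. All 73 were in the MEF list, 72 in the Stage 1 list, 72 in the Stage 2 list and 57 in the iPSC list, against 92.2%, 82.5%, 83.9% and 73.2% of the other genes. The 16 absent from the iPSC list, among them Rpl7a, Rpl10a, Rpl11 and Rps4x, were still counted there: the 15 tested had 1.32 to 3.12 times the read density outside the regions in iPSC. The regions of members were wider than most, with a median of 750 bp against 550 bp. Regions were shared with a gene outside the set in 24 members, where reads cannot be assigned to one gene or the other, and 2 regions were shared by a pair of members.

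With no region within 1 kb of a gene end were Rps2, a 40S protein of the mRNA entry side, Rpl17, Rps27l, a paralog of Rps27 and target of p53, and Rpl32l. The nearest region lay 1330 bp from Rps2, 1123 bp from Rpl17, 1027 bp from Rps27l and 21139 bp from Rpl32l. The listed starts of Rps2 and Rps27l lie inside the span of the gene in the table and do have a counted region, so both were tested in the fit at listed starts described below. There Rps2 had means of 34.4 CPM in MEF and 20.2 CPM in iPSC (log2 fold change -0.78 ± 0.20, adjusted p = 6.25e-04), and Rps27l 30.1 and 22.6 CPM (-0.44 ± 0.19, adjusted p = 0.0405). Rpl39l, the paralog of Rpl39 known from testis, had a single region that was too shallow to test. Its mean level was 5.12 CPM in MEF and 4.36 CPM in iPSC, with 0.987 CPM in Stage 1 and 3.80 CPM in Stage 2. Tests of the gene sums therefore covered 72 members, and Rps4l, a pseudogene in the table, was no member.

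Summed over their regions, each counted once, the members took the lowest share of the reads in regions in iPSC. The share was 0.233%, 0.233% and 0.225% in the MEF libraries, 0.259%, 0.244% and 0.239% in Stage 1, 0.232%, 0.243% and 0.230% in Stage 2, and 0.206%, 0.190% and 0.191% in iPSC. The 3 iPSC libraries lay below the 9 others, all 3 of Stage 1 lay above all 3 of MEF, and Stage 2 overlapped both. Relative to all reads of a library the same sum, in CPM, was 386 ± 129 for MEF (SD, n = 3), 189 ± 6.68 for Stage 1, 142 ± 19.1 for Stage 2 and 96.7 ± 9.84 for iPSC. On that scale the groups did not overlap and their means fell at each step. The density of reads in these regions was 16.8 ± 6.61 times that outside the regions in MEF and 3.61 ± 0.381 times in iPSC, and over all counted regions 8.06 and 2.05 times. A background at the outside density would make up 6.69% of the members' reads in MEF and 27.9% in iPSC. In bulk libraries, fewer cells with an open site and less opening per cell cannot be told apart. As a share of the reads in regions found in all 4 stage lists, the sum was 0.727%, 0.603%, 0.630% and 0.559% in the 4 groups.

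**Figure D1:**
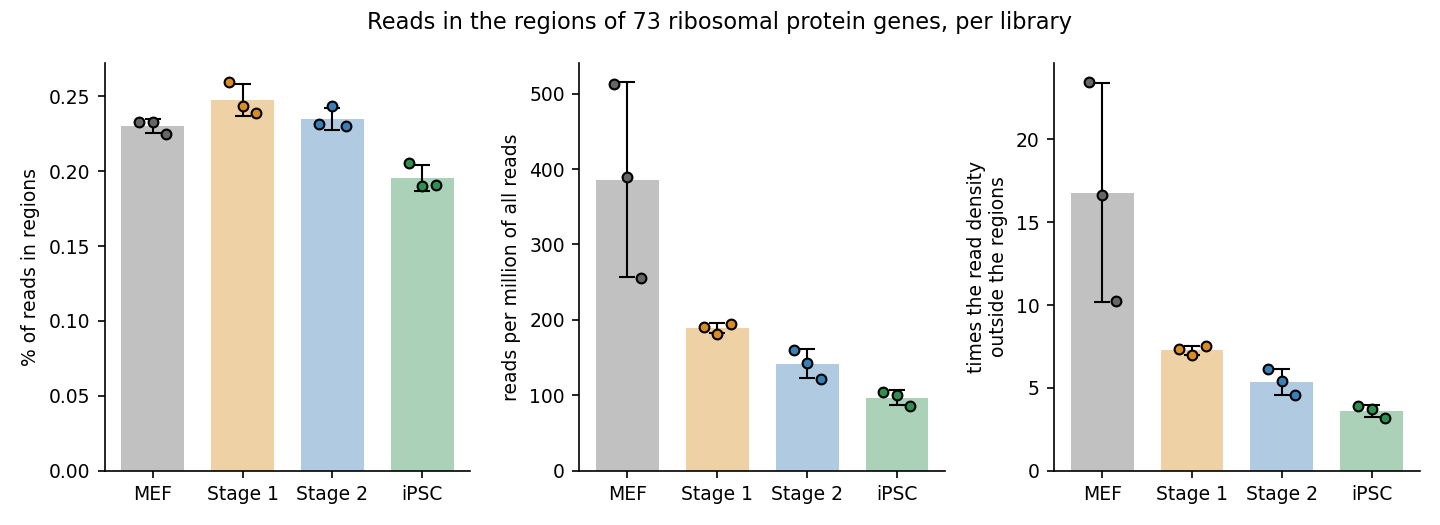
Reads in the regions of the 73 ribosomal protein genes in each of the 12 libraries (points), with group mean (bar) and SD (error bar, n = 3). The share of reads in regions (left, %) is 0.230% in MEF and 0.196% in iPSC, while the CPM of all reads (middle) falls from 386 to 96.7 and the density relative to outside the regions (right) from 16.8 to 3.61 times.

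From MEF to Stage 1, the first step of reprogramming, no common direction of the ribosomal protein genes held under every scaling. With reads in regions scaled by TMM (in-region scaling), 7 of 72 rose and 16 fell at an adjusted p under 0.05, 31.9% of them, while 51.6% of all 13717 genes tested were called, 27.2% higher and 24.4% lower. The median log2 fold change of the 72 was -0.17, against -0.01 for all genes. The split depended on the scaling, for the members as for all genes. It was 14 higher and 4 lower with the total of reads in regions and no TMM (38.7% and 12.2% of all genes). It was 17 higher and 0 lower with TMM over all regions, chosen after seeing the data (44.2% and 8.31%), and 4 higher and 32 lower with TMM over regions of all 4 stage lists (22.4% and 34.2%). Without Stage 1 replicate 3, 4 rose and 8 fell.

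Among the members called, Rpl35, a 60S protein at the tunnel exit, had 30.6, 29.0 and 26.3 CPM in MEF and 43.3, 50.9 and 46.7 CPM in Stage 1, a log2 fold change of 0.69 ± 0.15 (SE, adjusted p = 2.68e-05). Every Stage 1 library was above every MEF library. This call was lost within 500 bp (0.22, adjusted p = 0.269), at the listed start (0.24, adjusted p = 0.226) and in regions of 1 gene only (0.16, adjusted p = 0.418). The sum of Rpl35 includes a distal region that was not in the MEF list. Such a region entered the counted set through later groups, which favours a rise against MEF. Rps27a, which is made as a fusion with ubiquitin, rose by 0.55 ± 0.14 (adjusted p = 4.82e-04). Its groups did not overlap either, but with whole-library scaling, described below, the values of both genes were under 0 (-0.19 and -0.33). The largest falls were of 3 genes of the 40S subunit. Rps3, which lines the mRNA entry, had 29.2, 33.0 and 25.2 CPM in MEF and 19.1, 17.9 and 18 CPM in Stage 1 (log2 fold change -0.69 ± 0.19, adjusted p = 0.00123). Rps24 changed by -0.68 ± 0.20 (adjusted p = 0.00315) and Rps21 by -0.67 ± 0.13 (adjusted p = 9.07e-06), also with no overlap of the groups. All 3 kept their direction but were not called with TMM over all regions (adjusted p = 0.173, 0.211 and 0.0950), and Rps24 was also not called without TMM (adjusted p = 0.0716). The libraries of the 2 groups did not overlap for 7 members that were higher and 21 that were lower in Stage 1, against 28.3% and 27.5% of all genes.

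From Stage 1 to Stage 2 no ribosomal protein gene was called. edgeR's quasi-likelihood test called 0 of 72 in either direction and 7.72% of all genes, 3.56% higher and 4.16% lower, and DESeq2 also called 0 members. At an unadjusted p under 0.05 in edgeR's test 7 of the 72 passed, against 3009 of all 13717 genes. The median log2 fold change was -0.01, and 39 of 72 members (54.2%) had a 95% interval within 1.5-fold either way, against 37.2% of all genes.

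From Stage 2 to iPSC, 2 of 72 members fell and none rose. At an unadjusted p under 0.05 in edgeR's test 14 were lower and 1 higher, 15 in all, against 2465 of all 13717 genes. Of all genes 2.83% were called, 1.65% higher and 1.17% lower, and DESeq2 called 1 member lower. The median log2 fold change of the 72 was -0.12. Rps19, the 40S protein whose loss of 1 copy is known from Diamond-Blackfan anaemia, had 61.4, 69.7 and 71.7 CPM in Stage 2 and 34.9, 52.3 and 30.2 CPM in iPSC (log2 fold change -0.76 ± 0.16, adjusted p = 0.00204). Rpl10, an X-linked 60S protein that joins late in subunit assembly, had 39.5, 41.6 and 29.8 CPM against 19, 27.8 and 22.9 CPM (log2 fold change -0.69 ± 0.20, adjusted p = 0.0375). In both genes the 3 iPSC libraries lay below the 3 of Stage 2. The call of Rpl10 was lost without any 1 of Stage 2 replicates 1 and 2 and the 3 iPSC libraries (highest adjusted p = 0.203) and in DESeq2's test (0.182).

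Between MEF and iPSC, the end points, more members fell than rose under each of the 6 scalings tried. With in-region scaling 30 of 72 fell and 7 rose, while 28.1% of all genes were called lower and 29.7% higher (57.7% in all). The median log2 fold change was -0.35 against -0.01 for all genes, and 53 of 72 values were below 0. Both subunits took part: 19 of 44 tested 60S genes fell and 3 rose (median -0.35), and 11 of 28 40S genes fell and 4 rose (median -0.32). The split was 24 lower and 7 higher without TMM (24% and 31.9% of all genes) and also with TMM over all regions (23.6% and 30.4%). It was 38 lower and 4 higher with TMM over regions of all 4 stage lists (34.7% and 25.9%). Groups did not overlap for 34 members that were lower and 7 that were higher in iPSC, against 30.7% and 30.8% of all genes. The comparisons of Stage 1 and of iPSC share the MEF libraries, so their values for a gene are not independent.

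Rps19 had the largest fall. Its level was 99.7, 96.0 and 104 CPM in MEF, 72.7, 59.8 and 63.5 in Stage 1, 61.4, 69.7 and 71.7 in Stage 2, and 34.9, 52.3 and 30.2 in iPSC. MEF lay above the other groups and iPSC below them, and the log2 fold change from MEF to iPSC was -1.33 ± 0.14 (adjusted p = 1.76e-15). Rpl7a, a 60S protein whose only region also lies at an end of Med22, had 30.6, 42.9 and 37.6 CPM in MEF, 25, 25.9 and 27.6 in Stage 1, 16.5, 25.1 and 26.3 in Stage 2, and 15.2, 13.1 and 17.7 in iPSC (log2 fold change -1.28 ± 0.21, adjusted p = 4.57e-08). Stage 2 overlapped both neighbours. Rps21 had 73.4, 76.5 and 65.8 CPM in MEF, 37.4, 47.3 and 50.9 in Stage 1, 48.3, 42.8 and 39.7 in Stage 2, and 40.2, 21.3 and 30.2 in iPSC (log2 fold change -1.23 ± 0.15, adjusted p = 7.06e-12). Here MEF stood above the 3 other groups, which overlapped in part.

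Among the members that rose were Rps23, Rpl19, Rps27a, Rpl35 and Rpl34. Rps23, a 40S protein of the decoding centre, had 31.1, 36.6 and 41.0 CPM in MEF and 55.4, 58.1 and 57.2 CPM in iPSC (0.68 ± 0.15, adjusted p = 2.88e-05), with no overlap. The sums of Rps23 and Rpl35 each include a region that was not in the MEF list, which favours a rise against MEF. Rps27a had 37.2, 33.0 and 33.9 CPM in MEF and 43.2, 52.3 and 47.8 CPM in iPSC (0.45 ± 0.15, adjusted p = 0.00619), again with no overlap, in a single region shared with Clhc1. That call was lost without iPSC replicate 2 (adjusted p = 0.0714).

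**Figure D2:**
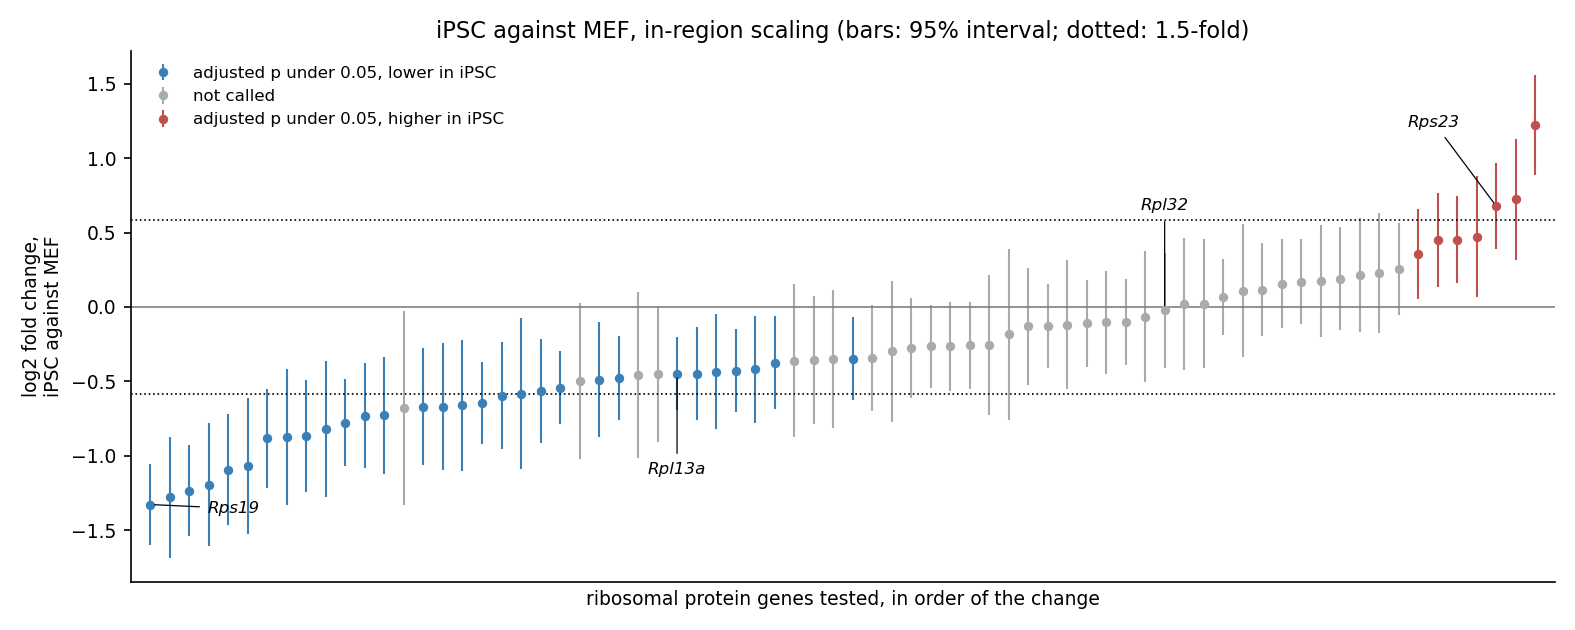
Log2 fold change from MEF to iPSC (y axis, in-region scaling) of each of the 72 ribosomal protein genes tested (x axis, in order of the change), with its 95% interval and 1.5-fold either way dotted. The 30 genes called lower (blue) reach -1.33 in Rps19, 35 are not called (grey), and 7 are called higher (red), among them Rps23 at 0.68.

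Whole-library scaling, in which each library is divided by all of its reads, lowered nearly every member. From MEF to iPSC 71 of 72 fell and 0 rose, with a median log2 fold change of -2.03, while 88.3% of all genes were called, 83.2% lower and 5.06% higher, and their median was -1.70. All 72 values were under 0, those of the 7 genes that rose with in-region scaling included. Rps23 turned from a rise to -0.996 ± 0.30 (adjusted p = 0.00122). From MEF to Stage 1, 62 of 72 fell and 0 rose (median -1.06), against 62.8% and 7.85% of all genes, 70.6% in all (median -0.89). No member was called from Stage 1 to Stage 2 or from Stage 2 to iPSC, while 4.13% (3.89% lower and 0.241% higher) and 0.0365% of all genes were called. At an unadjusted p under 0.05 in edgeR's test 10 and 22 members were lower, a looser threshold that cannot be set against these shares. The medians were -0.44 and -0.50 there, and those of all genes -0.42 and -0.38. No member had a 95% interval within 1.5-fold in any comparison, against 0.0146% of all genes in the first 3 and 0% in the last. The share of reads in regions, which this scaling does not remove, fell over the same groups from 16.7% to 4.94%, and its part in these values was not tested.

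**Figure D3:**
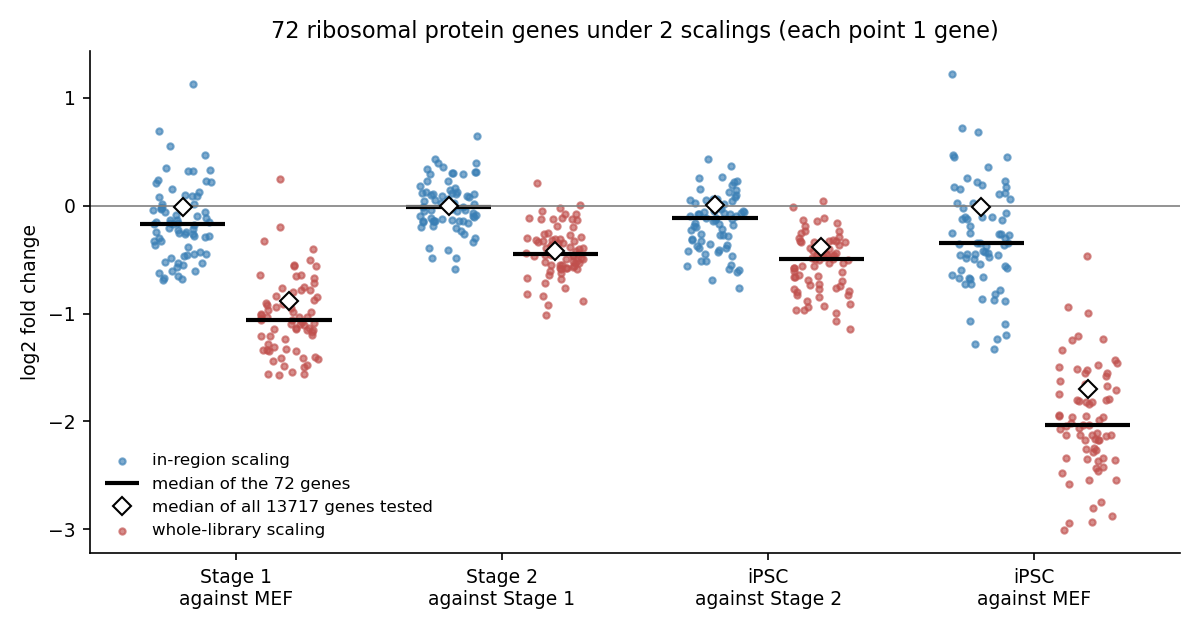
Log2 fold change (y axis) of each of the 72 ribosomal protein genes (points) in the 4 comparisons (x axis), under in-region (blue) and whole-library (red) scaling, with the median of the 72 (bar) and of all 13717 genes tested (diamond). For iPSC against MEF the bar moves from -0.35 to -2.03 and the diamond from -0.01 to -1.70.

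Because a scaling shifts all genes of a comparison by nearly the same amount, the median of the 72 minus that of all genes is nearly fixed by construction, and it shows no stability. This gap was -0.16 from MEF to Stage 1, -0.01 from Stage 1 to Stage 2, -0.12 from Stage 2 to iPSC and -0.34 from MEF to iPSC with in-region scaling. What the scaling sets is the level of both medians. Without TMM the median of all genes stood at 0.24 from MEF to Stage 1 and that of the members at 0.08, and with TMM over all regions these were 0.35 and 0.19.

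**Figure D4:**
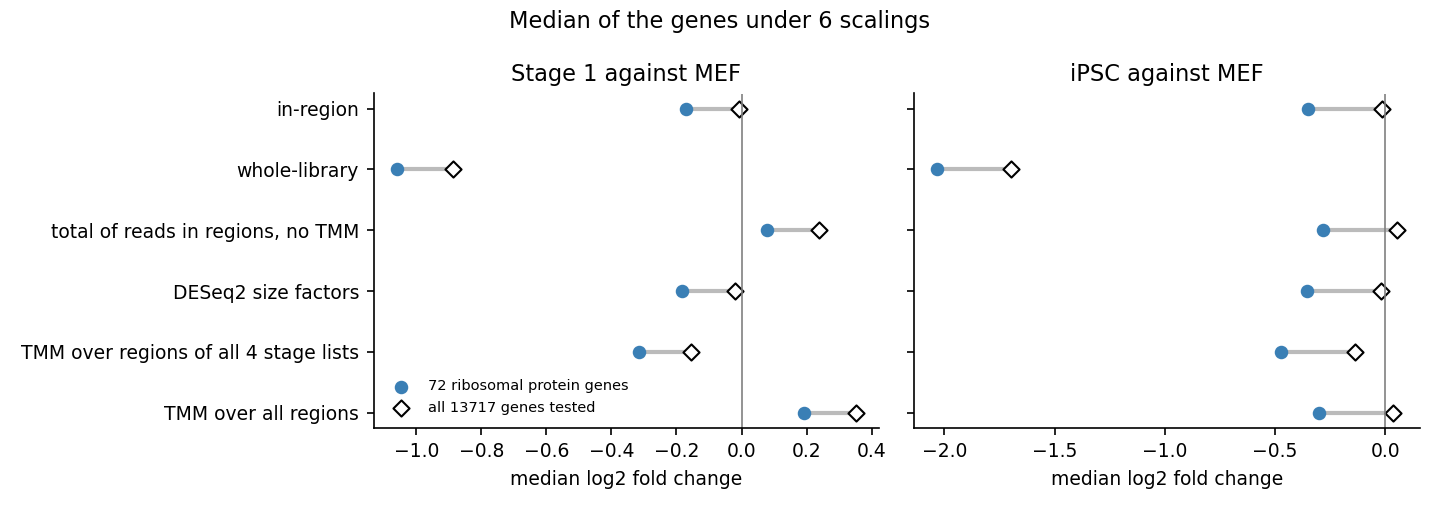
Median log2 fold change (x axis) of the 72 ribosomal protein genes (circles) and of all 13717 genes tested (diamonds) under 6 scalings (rows), in Stage 1 (left) and iPSC (right) against MEF; in-region means TMM over gene sums. Both symbols move together, as a shift of every gene makes them, and the gap between them is -0.16 and -0.34 with in-region scaling.

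A gene's sum could hold a start region and regions away from the start. Among 51 tested regions at a listed start, 0 rose and 15 fell from MEF to Stage 1 in edgeR's test, and 1 rose and 22 fell from MEF to iPSC, with medians of -0.26 and -0.44. All 51 were in the MEF list. Among 16 tested regions of members away from a listed start, 10 rose and 1 fell, and then 7 rose and 3 fell. Of these 16, 5 were not in the MEF list and all 5 rose in both comparisons. Such regions entered the counted set through later groups, so that choice favours a rise against MEF. The other 11 were in the MEF list, and 5 rose and 1 fell from MEF to Stage 1, and 2 rose and 3 fell from MEF to iPSC. Among 25 tested regions of members with no listed start, 8 rose and 5 fell, and then 6 rose and 9 fell (median -0.10 in both). Here too the 4 that were not in the MEF list rose in both comparisons, and among the other 21, 4 rose and 5 fell, and then 2 rose and 9 fell. Of all 71069 single regions tested, 42.8% rose and 37.8% fell from MEF to Stage 1, and 45.5% rose and 35.3% fell from MEF to iPSC. The region fit and the split by the MEF list, both chosen after seeing the data, used the scaling of the gene fit, and the difference between the kinds of region was not tested.

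In Rps23 the start region (chr13:90922501-90923450, mm10) had means of 34.2, 34.0, 32.9 and 37.2 CPM in the groups from MEF to iPSC (iPSC against MEF 0.13 ± 0.16, adjusted p = 0.463). The region past its other end (chr13:90925051-90925650) had 1.39, 1.59 and 3.01 CPM in MEF and 20.5, 22.9 and 15.6 CPM in iPSC. It is one of those not in the MEF list, so its values are given as a description, and the rise of the gene's sum given above includes them. In Rpl35 the start region (chr2:39004851-39005550) had means of 27.1, 32.3, 32.6 and 27.5 CPM (0.03 ± 0.18, adjusted p = 0.893). Its distal region (chr2:39000151-39000600), which also lies at an end of Wdr38, had 1.49, 14.7, 10.9 and 11.8 CPM and was also not in the MEF list. The rise of the Rpl35 sum given above includes this region. In Rps18 the start region, which also lies at an end of Vps52, had means of 32.6, 23.1, 21.9 and 21.8 CPM (-0.54 ± 0.19, adjusted p = 0.00843) and the distal one, at an end of B3galt4, 23.2, 36.9, 33.8 and 23.9 CPM (0.06 ± 0.19, adjusted p = 0.790).

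With in-region scaling, Rps19 combined opposite changes. Its start region (chr7:24883701-24884850) had 93.4, 92.0 and 95.2 CPM in MEF and 25, 38.4 and 18.7 CPM in iPSC, a larger fall than that of the gene's sum (-1.74 ± 0.16, adjusted p = 1.38e-17). Its distal region (chr7:24890301-24890800) rose from a mean of 6.29 CPM to 11.7 CPM (0.97 ± 0.32, adjusted p = 0.00436). This region of 500 bp held only 36, 20 and 23 reads in MEF and 13, 17 and 11 in iPSC. The density outside the regions was 8.31, 10.1 and 8.65 reads per kb in MEF and 9.37, 8.57 and 8.28 in iPSC. The part of such a background in the rise was not tested. Rps21 has 1 region, at its start, which also lies at an end of Cables2, and its fall is the one given above.

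**Figure D5:**
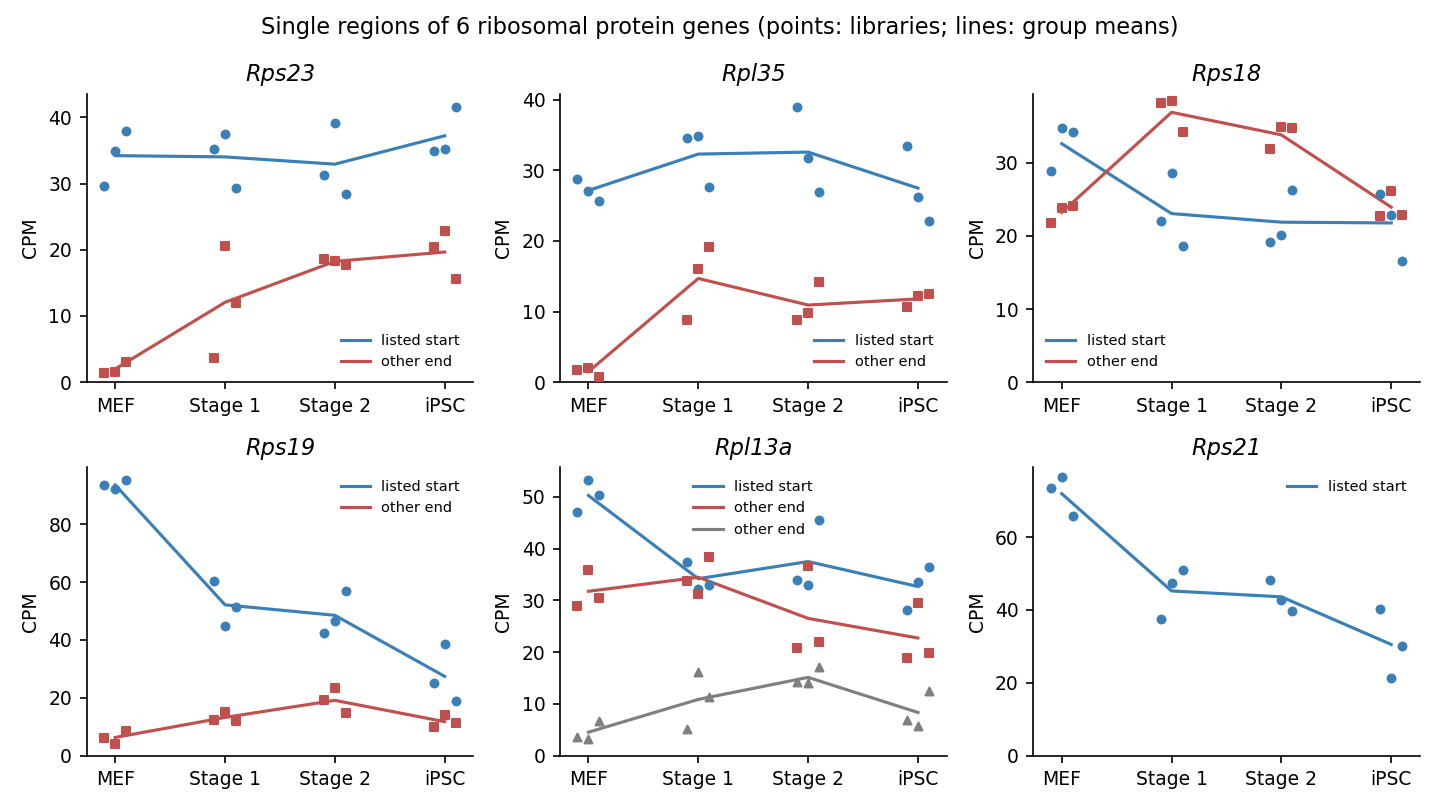
CPM (y axis, in-region scaling) of the single regions of 6 ribosomal protein genes in the 4 groups (x axis); points are libraries and lines join group means. In Rps23 and Rpl35 the start region has similar means in the groups and the distal one, not in the MEF list, is at 2.00 and 1.49 CPM in MEF and higher later, while in Rps19 and Rps21 the start region falls.

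Restricted to regions within 1 kb of a listed start, 55 members were tested among 11082 genes. From MEF to iPSC 22 were called lower and 1 higher (27.5% and 28.8% of all genes), with a median of -0.40. The 1 that rose was Rpl34, a 60S protein, with 37.2, 32.2 and 33.9 CPM in MEF and 44.0, 45.0 and 43.7 CPM in iPSC in the gene fit, where it has this 1 region, and a log2 fold change of 0.39 ± 0.15 (adjusted p = 0.0253) at the start. From MEF to Stage 1, 17 fell and 0 rose (23.2% and 26.6% of all genes), with 18 lower and 0 higher at an unadjusted p under 0.05 in edgeR's test. That split was 3 lower and 3 higher without TMM (11.5% and 37% of all genes), 1 lower and 4 higher with TMM over all regions (7.52% and 42.3%), and 29 lower and 0 higher with TMM over regions of all 4 stage lists (34.8% and 21.1%). For iPSC against MEF it was 21 lower and 1 higher without TMM (24.9% and 29.8% of all genes) and with TMM over all regions (24.4% and 28.3%), and 33 lower and 0 higher with TMM over regions of all 4 stage lists (36.1% and 23.9%). With whole-library scaling 53 were lower and 0 higher from MEF to Stage 1 (64% and 7.31% of all genes). From MEF to iPSC all 55 were then lower, Rpl34 included (84.9% of all genes lower and 4.52% higher). Of the members that rose in the sums from MEF to Stage 1, Rps27a and Rpl3 were among those with no listed start and so were not in this fit.

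Measured as the range of the 4 group means in log2 CPM, the members varied less than most genes. Their median range was 0.50, against 0.69 for all genes tested and 0.60 for genes with a region in all 4 stage lists, and 66 of 72 stayed under 1 (91.7% against 71.1%). Some difference among the 4 groups was nevertheless called in 39 of 72 members (54.2%, against 68.7% of all genes), and in 71 with whole-library scaling (against 90.6%). A 95% interval within 1.5-fold was reached by 36 members from MEF to Stage 1 (against 27.7% of all genes), by 30 from Stage 2 to iPSC (41.7% against 35.0%) and by 21 from MEF to iPSC (29.2% against 21.0%). Changes over 2-fold between MEF and iPSC were seen in 7 members (9.72% against 23.3%).

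With in-region scaling, the 3 members with the smallest range were of the 60S subunit. Rpl36a had 22.7, 17.3 and 17.7 CPM in MEF, 17.6, 22.3 and 18 in Stage 1, 15.4, 24.5 and 16.3 in Stage 2, and 18.2, 18 and 17.7 in iPSC. Its range of means was 0.092 log2 and all groups overlapped (adjusted p = 0.960 over the 4 groups). Its log2 fold change from MEF to iPSC was -0.12, with a 95% interval from -0.55 to 0.31. Rpl35a had a range of 0.093 log2 (adjusted p = 0.989), with 17.7, 20.1 and 18.8 CPM in MEF and 18.2, 14.7 and 21.8 CPM in iPSC. Rpl32 had 0.143 log2 (adjusted p = 0.946), with 23.4, 23.4 and 22.2 CPM in MEF and 24.3, 22.9 and 20.8 CPM in iPSC. Within 2 kb, Rpl35a took in further reads and its range rose to 0.50 (adjusted p = 4.91e-04). Among the largest ranges were those of Rps19 (1.37) and Rps21 (1.25). With whole-library scaling the ranges of Rpl36a, Rpl35a and Rpl32 were not small, at 1.64, 1.61 and 1.59 log2. Their adjusted p over the 4 groups in edgeR's test was then 5.61e-08, 2.33e-07 and 3.79e-07.

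Of 5 members often used as reference genes, 3 were called between MEF and iPSC, a share near the 57.7% of all genes. Rpl13a, which also takes part in translational silencing after interferon, had 79.7, 92.2 and 87.7 CPM in MEF and 53.8, 68.7 and 68.6 CPM in iPSC, with no overlap (log2 fold change -0.45 ± 0.12, adjusted p = 0.00124). At its start region alone the change was -0.63 ± 0.16 (adjusted p = 2.26e-04). Rps29, a 40S protein, had 63.2, 58.2 and 53.0 CPM in MEF and 41.7, 45.0 and 44.7 CPM in iPSC (-0.43 ± 0.14, adjusted p = 0.00634), also with no overlap. Rps18, of the 40S head, gave -0.26 ± 0.14 (adjusted p = 0.0998) in the sum and -0.51 ± 0.19 (adjusted p = 0.0160) with regions at the listed start only. Rpl32 gave -0.02 ± 0.20 (adjusted p = 0.935). With whole-library scaling, where every member was under 0, it gave -1.71 (adjusted p = 1.73e-07 in edgeR's test). Rpl19 rose by 0.47 ± 0.21 (adjusted p = 0.0419), with 16.1, 17.3 and 22.9 CPM in MEF and 26.5, 18 and 32.2 CPM in iPSC, which overlapped. Its 2 regions lay away from the listed start, one of them at an end of Cacnb1, and a further region, at the listed start but not within 1 kb of a gene end, gave -0.32 ± 0.24 (adjusted p = 0.254). The call of Rpl19 was lost without MEF replicate 1 or 2 or iPSC replicate 1 or 3 (highest adjusted p = 0.293).

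Among the members with a region in the gene sums, Rpl18 and Rpl3l likewise had a listed start with none of those regions within 1 kb of it. Rpl3l replaces Rpl3 in muscle, and its value (log2 fold change from MEF to iPSC -0.49 ± 0.19, adjusted p = 0.0252) comes from a region 3815 bp from the start that lies at an end of Msrb1. Rpl36al, a paralog of Rpl36a, shares its region with Mgat2 and had overlapping groups (-0.10 ± 0.15, adjusted p = 0.560).

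Other genes of protein synthesis and turnover shifted in the same direction between MEF and iPSC in their medians. The 8 ribosomal protein genes outside the symbol rule, such as those of the stalk, gave 5 lower and 0 higher (median -0.73, with 0 higher also at an unadjusted p under 0.05 in edgeR's test). Translation factors gave 23 lower and 2 higher of 44 (median -0.42), ribosome biogenesis factors 26 lower and 4 higher of 67 (-0.22), mitochondrial ribosomal protein genes 23 lower and 9 higher of 74 (-0.16) and proteasome subunits 12 lower and 1 higher of 32 (-0.27). The background is again 28.1% lower and 29.7% higher. Median ranges over the 4 groups were 0.65 for translation factors, 0.54 for biogenesis factors, 0.53 for mitochondrial ribosomal proteins and 0.59 for the proteasome, against 0.50 for the 72 members. No test set the members apart from these lists. Of the 4 X-linked members, 1 fell and 0 rose from MEF to iPSC (median -0.40), which is Rpl10.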

How the data were processed

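Each library's deposited file holds raw read counts, as whole numbers, in 115000 regions common to all libraries, and the authors also deposited 1 region list per stage, in which every interval was present in all 3 replicates. The submitters' processing notes name the mm10 build with DESeq2 1.12.4, HTSeq 0.5.4p3 and Bowtie2 2.2.6, beside SAMtools 0.1.19 and Picard 2.6.0. The peak caller and the handling of duplicates and of the Tn5 offset are not given in the sources used here. Rows for reads in no region were left out of library sizes, except for whole-library scaling, and ambiguous reads were 0.0311% to 0.230%.

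Regions within 1 kb of either gene end in the RefSeq table of GRCm38.p6 (mm10) were summed per gene, and each shared region counted for each of its genes. That table has no strand, so starts came from the RefSeq promoter table. Genes passing a filter (minimum count 10, minimum total 15) were fitted with edgeR 4.0.16 in R 4.3.3: TMM scaling on reads in regions, robust quasi-likelihood tests over the 12 libraries, and Benjamini-Hochberg adjustment over all genes, with 0.05 as the threshold. Standard errors and 95% intervals come from that fit. Whole-library scaling used all reads without TMM. DESeq2 1.42.0 served as an alternative, beside other scalings, windows and filters and leaving out each library. Fits on single regions, TMM over all regions, and the other scalings at listed starts were added after seeing the data. Replicate libraries were not identical, and p-values measure only the spread between them, which may be technical.

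Members and gene lists were chosen with earlier results of these data known. Genes named were members called with no overlap of the libraries, up to the 3 largest rises and 3 largest falls per comparison, the 3 smallest and 3 largest ranges, 5 reference genes, paralogs, and members without a region or below the filter. Some members named by this rule are not reported here singly but stay in the counts. Other genes named were chosen after their values were seen.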

Additional observations from a re-analysis of the deposited data

How the results depend on the processing

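With whole-library scaling 62 members were called from MEF to Stage 1, 0 from Stage 2 to iPSC and 71 from MEF to iPSC, and 71 over the 4 groups. The medians were then -1.06, -0.44, -0.50 and -2.03 in the 4 comparisons in order, and 0 members stayed within 1.5-fold in each. Without TMM the medians were 0.077 (from MEF to Stage 1, reversed), -0.10, -0.22 and -0.28, with 6 calls from Stage 2 to iPSC, all lower. Of all genes 3.4% were called lower and 1.13% higher at that step. TMM over regions of all 4 stage lists gave 36 calls from MEF to Stage 1 (median -0.32, 20 within 1.5-fold), 1 from Stage 1 to Stage 2, 4 from Stage 2 to iPSC, and a median of -0.47 from MEF to iPSC. In these 3 steps 22.4%, 4.29% and 1.65% of all genes were called higher and 34.2%, 3.48% and 1.44% lower. TMM over all regions gave a median of 0.19 from MEF to Stage 1 (reversed), of -0.14 at the next step, and 11 calls, all lower, a median of -0.31 and 17 within 1.5-fold from Stage 2 to iPSC. At that last step 6.56% of all genes were called lower and 0.773% higher. DESeq2 size factors gave 1 call from Stage 1 to Stage 2, against 3.71% of all genes higher and 4% lower. A 2 kb window gave 1 call at that step and 4 from Stage 2 to iPSC. Start regions alone gave a median of -0.25 and 23 within 1.5-fold from MEF to Stage 1, 18 within from Stage 2 to iPSC, 23 calls and 13 within from MEF to iPSC, and 25 calls over the 4 groups. Regions of 1 gene only gave medians of -0.28 and -0.46 for Stage 1 and iPSC against MEF with 17 and 12 within, 1 call and 25 within from Stage 1 to Stage 2, and 18 within from Stage 2 to iPSC. Fewer members were tested in both. DESeq2's own test called 15 from MEF to Stage 1 and 1 from Stage 2 to iPSC. No share of all genes is given for this test, the 2 kb window, regions of 1 gene, left-out libraries or the replicate block. The same holds for start regions over the 4 groups. Those counts describe the members only.

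The summed share of reads in regions was 0.220%, 0.231%, 0.217% and 0.183% in MEF, Stage 1, Stage 2 and iPSC within 500 bp, 0.255%, 0.284%, 0.269% and 0.224% within 2 kb, 0.156%, 0.149%, 0.137% and 0.116% at starts, 0.150%, 0.154%, 0.149% and 0.125% in regions of 1 gene, and 0.727%, 0.603%, 0.630% and 0.559% of reads in regions of all 4 lists.

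Leaving out 1 library gave 12 to 23 calls from MEF to Stage 1, 0 to 1 from Stage 1 to Stage 2, 1 to 4 from Stage 2 to iPSC (4 without MEF replicate 1 or Stage 1 replicate 1), 29 to 37 from MEF to iPSC and 37 to 40 over the groups. The medians ran from -0.19 to -0.17, -0.02 to 0.03, -0.21 to -0.12 and -0.41 to -0.27.

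The labels' replicate numbers showed no clear pairing of the samples: 18 correlations of same-numbered libraries ran from -0.0870 to 0.0926, and 6 of 12 libraries correlated best with their own number. With 3 libraries a group, these values cannot decide whether same-numbered libraries were paired. With the replicate number as a block, 22, 1 and 36 members were called from MEF to Stage 1, from Stage 1 to Stage 2 and from MEF to iPSC.

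Of 643 values of named genes under alternatives, 584 kept direction and call, 26 lost and 23 gained a call and 10 reversed. Whole-library scaling reversed Rpl35 (-0.19) and Rps27a (-0.33) from MEF to Stage 1, and Rps23 (-0.996), Rps27a (-1.24) and Rpl19 (-1.21) from MEF to iPSC. Rpl32 was 0.046 without TMM and 0.027 with TMM over all regions, it ran from -0.081 to 0.027 with 1 library left out (the latter without iPSC replicate 3), and Rpl19 was -0.055 within 500 bp and -0.32 at its start. The cause of these changes was not tested. Members had a median of 29.0 reads per iPSC library, and 21 of 72 intervals from MEF to iPSC lay within 1.5-fold.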
